A study of Mus musculus with 2 samples.

Results

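The mir-106b-25 and mir-106a-363 clusters are the paralogs of the mir-17 to mir-92 cluster, named here the Mir17hg cluster after its host gene. The 9 genes described here, of 2202 miRNA genes in the tables, were chosen by name: Mir106b, Mir93 and Mir25 from the first cluster, and Mir106a, Mir18b, Mir20b, Mir19b-2, Mir92-2 and Mir363 from the second. The rule that names them uses no measured value, though the genes were chosen with earlier results of these data known. MicroRNA sequencing of RNA under 30 nucleotides was carried out on the adrenal gland of adult male mice aged 8 to 10 months, in 2 libraries of 1 group. The strain is labelled 5xFAD/CAST, a name made of 5xFAD, a model of Alzheimer's disease whose transgenes are driven by the neuronal Thy1 promoter, and CAST, an inbred strain derived from wild mice. The labels do not say whether these animals carried the transgenes. The libraries, biological replicates 1 and 2, have separate sample records and 1 shared donor record, so the spread between them may be partly technical. With 1 group there was no contrast between conditions.

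A miRNA gene is transcribed as part of a longer RNA, from which a hairpin is cut and then trimmed to a mature strand of the 5′ or 3′ arm. Bases 2 to 8 of the mature strand, the seed, pair with target mRNAs, so miRNAs with the same seed share many targets. The clusters arose by duplication and carry between them hairpins of the same 4 seeds as the Mir17hg cluster, which is known from proliferating cells and tumours. Known targets of their products include the cell cycle inhibitor Cdkn1a and the proapoptotic gene Bcl2l11. Loss of mir-106b-25 alone or of mir-106a-363 alone is tolerated in mice, whereas combined loss of mir-106b-25 and the Mir17hg cluster is lethal in the embryo. In the adrenal gland, the RNA of a bulk sample mixes cortex, medulla and vessels, and fewer cells of a type cannot be told apart from less RNA per cell.

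The mature strands are shown because they decide both which targets a member shares and whether its reads can be told from those of another gene. The strands usually used as the main product are given 5′ to 3′ from RefSeq on GRCm38.p6, with the seed in capitals. The members with the seed AAAGUGC come first, each set against Mir17 and Mir20a of the paralog cluster.
miR-106b-5p: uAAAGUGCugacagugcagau
miR-93-5p: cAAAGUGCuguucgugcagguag
miR-106a-5p: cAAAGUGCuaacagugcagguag
miR-20b-5p: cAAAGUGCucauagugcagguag
miR-17-5p: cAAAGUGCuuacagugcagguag
miR-20a-5p: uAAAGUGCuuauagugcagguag
The members with the seed AUUGCAC follow, of which Mir92-2 has the same mature strand as Mir92-1 of the paralog cluster.
miR-25-3p: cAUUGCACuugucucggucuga
miR-92a-3p: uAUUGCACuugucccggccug
miR-363-3p: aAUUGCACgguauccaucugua
The last sets are Mir18b with its paralog Mir18, whose seed is AAGGUGC, and Mir19b-2 with Mir19a, whose seed is GUGCAAA. The strand miR-19b-3p is made from both Mir19b-2 and Mir19b-1.
miR-18b-5p: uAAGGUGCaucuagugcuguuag
miR-18a-5p: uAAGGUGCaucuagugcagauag
miR-19b-3p: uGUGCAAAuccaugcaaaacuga
miR-19a-3p: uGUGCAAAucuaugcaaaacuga

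Outside the seed, the members differed by few bases. Counting from 1 at the 5′ end and giving the member's base first, miR-106a-5p differs from miR-17-5p by A10U alone. The strand miR-20b-5p differs from miR-20a-5p by C1U and C10U, and from miR-17-5p by C10U and U12C. The strand miR-18b-5p differs from miR-18a-5p by U18A and U20A. Over the first 21 bases, miR-25-3p differs from miR-92a-3p by C1U, U14C and U18C. Further apart, miR-93-5p has 4 mismatches to miR-17-5p, and miR-363-3p has 11 mismatches to miR-92a-3p over 21 bases.

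The mir-106b-25 hairpins lie on the minus strand of chromosome 5 of GRCm38 (mm10), in the order Mir106b, Mir93 and Mir25. Mir106b (ENSMUSG00000065514.1) is at chr5:138165737-138165818, Mir93 (ENSMUSG00000065527.1) at chr5:138165523-138165610 and Mir25 (ENSMUSG00000065394.1) at chr5:138165321-138165404. All 3 lie within 498 bases, in the intron between exons 13 and 14 of the coding transcript of Mcm7 that has 15 exons. Mcm7 encodes a subunit of the replicative DNA helicase. Mir93 and Mir25 also overlap an exon of a retained-intron transcript of Mcm7. The mir-106a-363 hairpins lie on the minus strand of the X chromosome within 875 bases, at chrX:52741693-52742567. Their order is Mir106a, Mir18b, Mir20b, Mir19b-2, Mir92-2 and Mir363. The first, Mir106a, overlaps the 3′ end of the noncoding gene Kis2 by 5 bases in the annotation, and the other 5 hairpins overlap no other annotated gene.

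**Figure D1:**
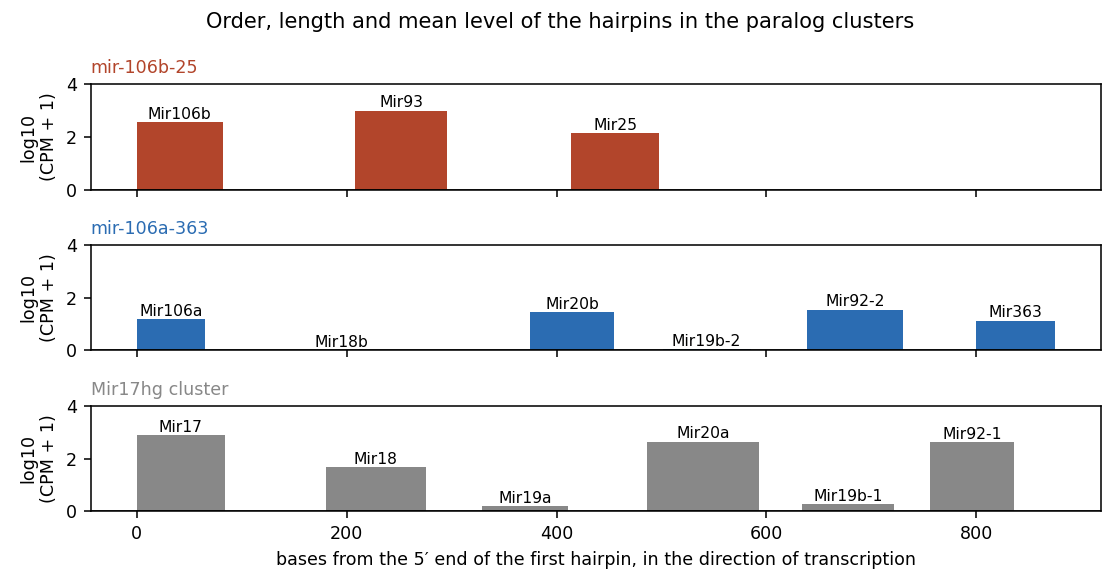
Position along the transcript, in bases from the 5′ end of the first hairpin, against log10(CPM + 1) averaged over 2 libraries, for the 3 hairpins of mir-106b-25, the 6 of mir-106a-363 and the 6 of the Mir17hg cluster. Each bar spans 1 hairpin. In both 6-hairpin clusters the mir-19 hairpins are lowest or near lowest in counted reads, and Mir18b has no bar because it had no reads.

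The libraries held 6783227 reads of miRNA genes on the strand of the gene in replicate 1 and 3084602 in replicate 2. CPM below means reads per 1000000 of these, and since 1 read comes from 1 short RNA it needs no scaling by length. Neuroendocrine, endothelial and smooth muscle markers were all detected, with 4 of 4, 1 of 1 and 2 of 2 genes above 2 CPM in both libraries. Of 8 striated muscle markers, 6 had no reads and the list summed to 5.45 and 4.21 CPM, although Mir1a and Mir133a come from duplicated genes whose shared reads are not counted.

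Mir93 led the mir-106b-25 cluster, and all 3 of its genes were detected. Mir93 had 945 CPM in replicate 1 and 1085 CPM in replicate 2, from 6412 and 3346 reads. Its mean of 1015 ± 98.6 CPM (SD, n = 2) ranked 69th of all miRNA genes in counted reads, which leave out multimapping reads. Mir106b, the first hairpin of the cluster, had 351 and 402 CPM, a mean of 376 ± 35.7 CPM. Mir25, the last hairpin and the one member of this cluster with the miR-92 type of seed, had 125 and 147 CPM, a mean of 136 ± 15.8 CPM. In both libraries Mir93 was highest, Mir106b intermediate and Mir25 lowest. Together they held 0.142% and 0.163% of miRNA reads, or 1527 ± 150 CPM.

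The mir-106a-363 cluster was lower in counted reads and uneven. Its 6 genes summed to 89.8 CPM in replicate 1 and 90.8 CPM in replicate 2, a mean of 90.3 ± 0.702 CPM. The sums rest on 609 and 280 reads, and this SD is smaller than their counting error. Within the sum, Mir363 and Mir20b differed between the libraries in opposite directions. The summed level of mir-106b-25 was 15.8-fold (exact 95% interval 14.6 to 17.2) and 18.0-fold (16.0 to 20.4) above it in counted reads. Mir92-2 and Mir19b-2 share their mature strands with other genes, and such reads were counted for neither. These folds are therefore upper limits, provided that the reads counted for each gene came from it. Mir92-2 had 33.8 and 35.7 CPM, and Mir20b, a sequence relative of Mir20a, had 32.0 and 24.0 CPM. Mir106a had 16.4 CPM in replicate 1 and 13.0 CPM in replicate 2, from 111 and 40 reads. Mir363, the last hairpin, had 7.67 CPM in replicate 1 and 17.8 CPM in replicate 2, from 52 and 55 reads.

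Mir18b and Mir19b-2 were not detected above 2 CPM. Mir18b had 0 reads in both libraries. Its mature strand matches no other annotated hairpin and its hairpin shares at most 17 bases with another, so the limit set by its counts, 3 reads, lies at 0.442 CPM for replicate 1 and 0.973 CPM for replicate 2. Mir18, its paralog, had 47.3 CPM in both libraries. Mir19b-2 had 0 reads in replicate 1 and 1 read in replicate 2. Reads of its main strand cannot be assigned to it, because Mir19b-1 has the same strand, so these counts set no upper limit.

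The hairpins with shared strands are shown because only their flanks tell their reads apart. In the stretches below, capitals mark the longest run that the paralogous hairpins share, and lower case marks the flanks that differ. The positions on GRCm38 are chrX:52741848-52741881 for Mir92-2, chr14:115044469-115044502 for Mir92-1, chrX:52741985-52742021 for Mir19b-2 and chr14:115044350-115044386 for Mir19b-1.
Mir92-2: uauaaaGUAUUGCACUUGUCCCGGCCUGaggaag
Mir92-1: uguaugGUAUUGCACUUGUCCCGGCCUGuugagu
Mir19b-2: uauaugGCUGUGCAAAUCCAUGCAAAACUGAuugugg
Mir19b-1: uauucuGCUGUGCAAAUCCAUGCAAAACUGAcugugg
The shared run of the mir-92 pair is 22 bases and ends with the last base of the mature strand, so a read extended beyond its 3′ end differs between the genes. For the mir-19b pair the shared run is 25 bases. Multimapping reads were assigned to no gene. The values of Mir92-2 and Mir19b-2 are therefore lower limits, provided that the reads counted for them came from these genes. That was not tested, and the mismatches allowed in the alignment are not stated. None of the other 7 members shares 20 bases with another annotated hairpin.

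**Figure D2:**
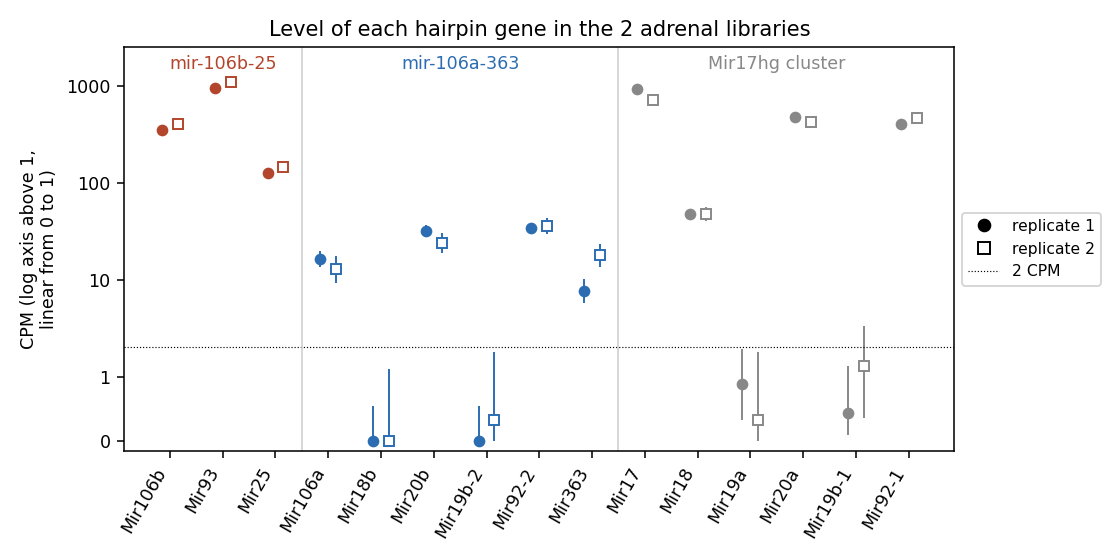
CPM of each hairpin gene on an axis that is logarithmic above 1 and linear below, in replicate 1 (filled circles) and replicate 2 (open squares), with exact 95% Poisson intervals of the counts. The 3 genes of mir-106b-25 lie between 125 and 1085 CPM, and the 4 detected genes of mir-106a-363 between 7.67 and 35.7 CPM.

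In all, 7 of 9 members (77.8%) exceeded 2 CPM in both libraries, against 15.2% of all 2202 annotated miRNA genes. Members were compared by a rule on the replicate spread: the higher gene had to be higher in both libraries, and by more than either gene differed between the libraries on the log2(CPM + 1) scale. By this rule 17 of the 21 pairs of detected members were ordered (81.0%), against 81.7% of all pairs of genes of mean CPM of at least 10. Each gene of mir-106b-25 stood above each of the 4 detected genes of mir-106a-363, and Mir93, Mir106b and Mir25 were ordered among themselves. For Mir92-2 the order holds for counted reads only, because reads that fit both Mir92-2 and Mir92-1 were not counted. The 4 pairs that were not ordered all lay within mir-106a-363. They were Mir92-2 with Mir20b, and Mir363 with each of Mir92-2, Mir20b and Mir106a.

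The proportions within mir-106b-25 were nearly the same in both libraries. Mir93 made up 66.5% (exact 95% binomial interval 65.6 to 67.4) of the cluster's reads in replicate 1 and 66.4% (65.1 to 67.7) in replicate 2. Mir106b made up 24.7% (23.8 to 25.6) and 24.6% (23.4 to 25.8). Mir25 made up 8.79% (8.23 to 9.37) and 9.01% (8.23 to 9.83). Each share differed between the libraries by less than its counting error. Mir93 stood 2.69-fold and 2.70-fold above Mir106b, and Mir106b stood 2.81-fold and 2.73-fold above Mir25. A capture bias common to both libraries would be part of these ratios.

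Within mir-106a-363 the proportions varied more. Mir92-2 made up 37.6% (33.7 to 41.6) of the cluster's reads in replicate 1 and 39.3% (33.5 to 45.3) in replicate 2. Mir20b made up 35.6% (31.8 to 39.6) and 26.4% (21.4 to 32.0), and Mir106a 18.2% (15.2 to 21.5) and 14.3% (10.4 to 18.9). Mir363 made up 8.54% (6.44 to 11.0) in replicate 1 and 19.6% (15.2 to 24.8) in replicate 2, and these intervals do not overlap. Non-overlap was not particular to Mir363. In the Mir17hg cluster, Mir17 made up 49.7% (48.8 to 50.6) and 43.3% (41.9 to 44.7) of its cluster's reads. Mir92-1 made up 22.1% (21.4 to 22.9) and 27.9% (26.7 to 29.2), so for both genes the intervals do not overlap either. Such shares were not computed for other clusters.

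**Figure D3:**
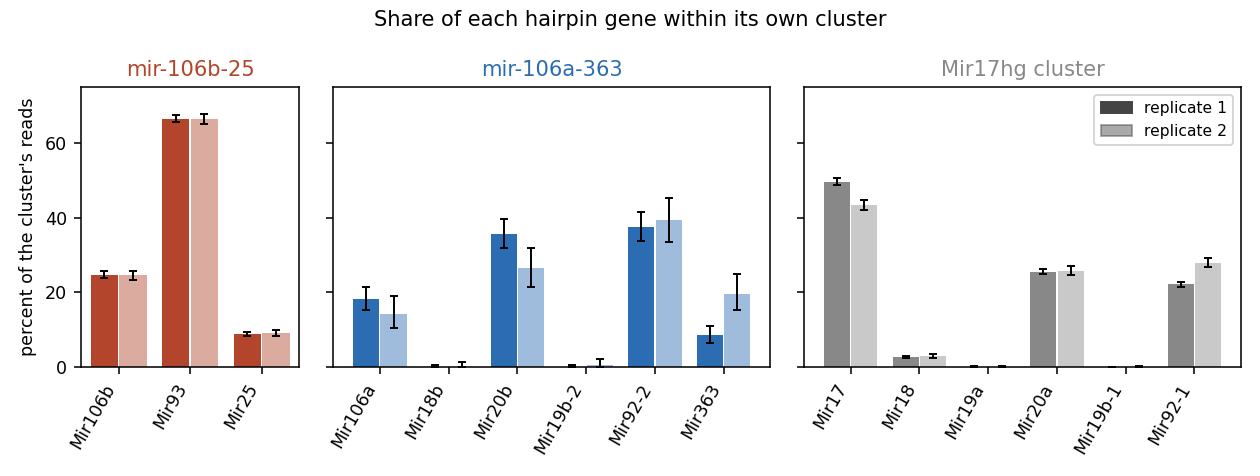
Percent of the reads of each cluster held by each of its hairpin genes, in replicate 1 (dark bars) and replicate 2 (pale bars), with exact 95% binomial intervals. The pairs of bars for Mir106b, Mir93 and Mir25 differ by less than their intervals, whereas Mir363 has 8.54% in replicate 1 and 19.6% in replicate 2.

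The replicates were then compared gene by gene on the log2(CPM + 1) scale, as replicate 2 minus replicate 1. A gene was called different at an adjusted p under 0.05 in Fisher's exact test on reads with an absolute log2 difference of at least 1. The test compares the reads of 2 libraries, not conditions or animals. Of the 7 members tested, 1 was called, against 10.7% of 280 genes. This was Mir363, higher in replicate 2 by 1.12 (Fisher's exact test, adjusted p = 3.12e-05). It rests on 52 and 55 reads, and it was not called with DESeq2 size factors, at 0.99, or with a pseudocount of 5 CPM, at 0.85.

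The genes of mir-106b-25 differed alike and by little. The log2 differences were 0.20 for Mir93, 0.19 for Mir106b and 0.24 for Mir25. By Fisher's exact test alone 5 of the 7 members had an adjusted p under 0.05, against 69.3% of the 280 genes (37.1% higher and 32.1% lower in replicate 2). The 5 were these 3, Mir363 and Mir20b, and Mir20b was the one lower in replicate 2, at -0.40. Mir106a stood at -0.31 and Mir92-2 at 0.08, and neither passed. The scaling matters for such small values. The median log2 difference of the 280 genes was 0.01 as scaled here, -0.09 with TMM and -0.12 with DESeq2 size factors. Mir93 stood at 0.10 with TMM and at 0.06 with DESeq2 size factors, where its adjusted p in Fisher's exact test was 0.0649. The count of members with an adjusted p under 0.05 was 3 with TMM and 2 with DESeq2 size factors. The median absolute log2 difference was 0.24 over the 7 members and 0.28 over the 280 genes.

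Some markers of other cells also differed in level between the libraries. The liver marker Mir122 had 257 CPM in replicate 1 and 57.7 CPM in replicate 2. The erythroid list, with 3 of 3 genes above 2 CPM, summed to 5556 CPM in replicate 1 and 2149 CPM in replicate 2, a difference carried by Mir451a at 5351 and 1949 CPM, while Mir144 had 191 and 187 CPM and Mir486 had 14.2 and 12.6 CPM. The endothelial marker Mir126a had 92610 and 52519 CPM, and the neuroendocrine list of 4 genes summed to 63615 and 87243 CPM. Mir375 held most of that sum, at 58717 and 82443 CPM, while Mir7b had 4535 and 4423 CPM, Mir7-1 had 250.0 and 233 CPM and Mir7-2 had 113 and 143 CPM. The leukocyte list, with 4 of 4 genes above 2 CPM, summed to 610 and 693 CPM. Its genes did not differ alike: Mir142 had 249 and 282 CPM, Mir150 had 162 and 191 CPM, and Mir223 had 38.3 and 73.6 CPM. Mir155 was lower in replicate 2, at 161 and 147 CPM. All these marker values are counted reads only, because multimapping reads were left out. Whether other hairpins hold the mature strands of these markers was not examined, so values such as those of Mir7-1, Mir7-2 and Mir486 set no upper limit. The part of these markers in the differences of Mir363, Mir20b and the mir-106b-25 genes was not tested.

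**Figure D4:**
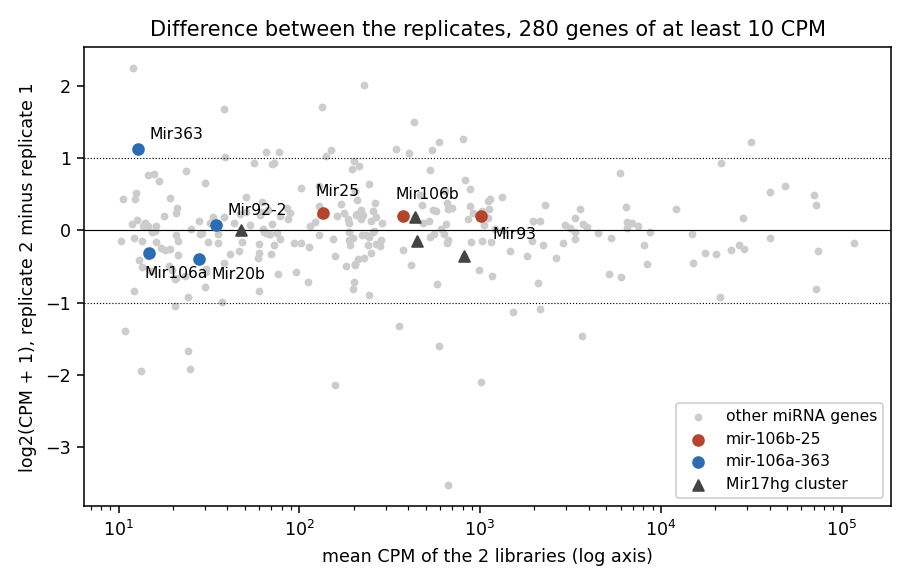
Mean CPM (log axis) against the difference in log2(CPM + 1), replicate 2 minus replicate 1, for 280 miRNA genes of mean CPM of at least 10, with dotted lines at 1 and -1. The genes of mir-106b-25 lie close together at 0.19 to 0.24, and Mir363 at 1.12 is the one member beyond a dotted line.

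Set beside the Mir17hg cluster, mir-106b-25 was of the same order of level and mir-106a-363 far lower in counted reads. The 3 hairpins of mir-106b-25 had 1421 and 1634 CPM in all, and the 6 of the Mir17hg cluster had 1849 and 1656 CPM. The ratio was 0.769 (exact 95% interval 0.748 to 0.789) in replicate 1 and 0.986 (0.949 to 1.03) in replicate 2. The ratio averaged 0.878 ± 0.154 (SD, n = 2), and it was 1.18 when Mir92-1 and Mir19b-1, whose mature strands match a second hairpin, were left out. The value of 1.18 could only be higher, because reads were left out of the Mir17hg cluster alone. Reads that fit 2 hairpins are missing from the other ratios, and any that came from Mir92-1 or Mir19b-1 would lower them. Since the interval of replicate 2 spans equal levels, the order of these clusters is not settled by these counts. The 6 hairpins of mir-106a-363 had 4.86% (4.47 to 5.27) and 5.48% (4.84 to 6.18) of the counted reads of the Mir17hg cluster. In these values Mir92-2, Mir19b-2, Mir92-1 and Mir19b-1 all lack the reads that fit 2 hairpins.

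Mir106a and Mir20b were each far below a close sequence relative in the Mir17hg cluster. Mir106a had 1.78% (1.46 to 2.15) and 1.81% (1.29 to 2.47) of the reads of Mir17, from which its mature strand differs by 1 base. Mir20b had 6.77% (5.87 to 7.77) and 5.61% (4.38 to 7.09) of the reads of Mir20a. Mir92-2 had 8.26% (7.18 to 9.45) and 7.71% (6.30 to 9.37) of the reads of Mir92-1. Both genes have the same mature strand and lack the reads that fit both, so this ratio bounds neither and does not order them. How many of the reads counted for Mir106a came from Mir17 was not tested. In mir-106b-25, by contrast, Mir93 was not ordered against Mir17 by the rule above, at 945 and 1085 CPM for Mir93, against 919 and 717 CPM for Mir17. Mir106b was likewise not ordered against Mir20a, which had 473 and 428 CPM. Mir25 was lower than Mir92-1, which had 409 and 462 CPM. Of 28 pairs of a detected member and a detected gene of the Mir17hg cluster, 26 were ordered beyond the replicate spread in counted reads. Across all gene pairs in the background given above, the same rule ordered 81.7%. Some of these orders hold for counted reads only, because Mir92-2 and Mir92-1 lack the reads that fit both. They are Mir92-2 below each of Mir17, Mir18, Mir20a and Mir92-1, and Mir93 above Mir92-1.

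Few reads were counted for the mir-19 hairpins in both 6-hairpin clusters, and for Mir19b-2 and Mir19b-1, with the same mature strand, the counts set no upper limit. Mir19a had 6 reads in replicate 1 and 1 read in replicate 2, and Mir19b-1 had 3 and 4 reads. Mir19a has a mature strand that differs from miR-19b-3p by 1 base, shown above, and no other annotated hairpin holds it exactly. Mir19a had 0.885 and 0.324 CPM in the cluster where Mir17 had 919 and 717 CPM. The mismatches allowed in the alignment are not stated in the labels or beside the tables.

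The members fall into 4 seed families. The seed AAAGUGC is found in 7 annotated genes, 4 of them members, and these genes summed to 2736 and 2668 CPM. The members held 49.1% (48.4 to 49.9) of the reads of this family in replicate 1 and 57.1% (56.0 to 58.2) in replicate 2, a mean of 53.1% ± 5.62 (SD, n = 2). Almost all of this came from the Mcm7 intron, with Mir93 at 34.5% and 40.7% and Mir106b at 12.8% and 15.1%. Mir20b added 1.17% and 0.899%, and Mir106a 0.598% and 0.486%. The remaining gene of the family outside the clusters had no reads.

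The seed AUUGCAC is found in 7 genes, 3 of them members, which summed to 629 and 743 CPM. The members held 26.4% (25.1 to 27.8) and 27.0% (25.2 to 28.9) of the reads, a mean of 26.7% ± 0.421. Mir25 made up 19.8% in both libraries, Mir92-2 made up 5.36% and 4.80%, and Mir363 made up 1.22% and 2.40%. The rest came from Mir92-1 at 65.0% and 62.2%, from Mir92b with 25.5 and 52.2 CPM, and from Mir32 with 28.6 and 27.6 CPM, while the remaining gene had no reads. Since reads of miR-92a-3p that fit both hairpins were counted for neither, the share of this family held by the members is uncertain. In the family of the seed AAGGUGC the member Mir18b held 0 of 321 and 0 of 146 reads, and all came from Mir18. The family of the seed GUGCAAA had 9 and 6 reads in all, of which Mir19b-2 held 0 and 1.

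**Figure D5:**
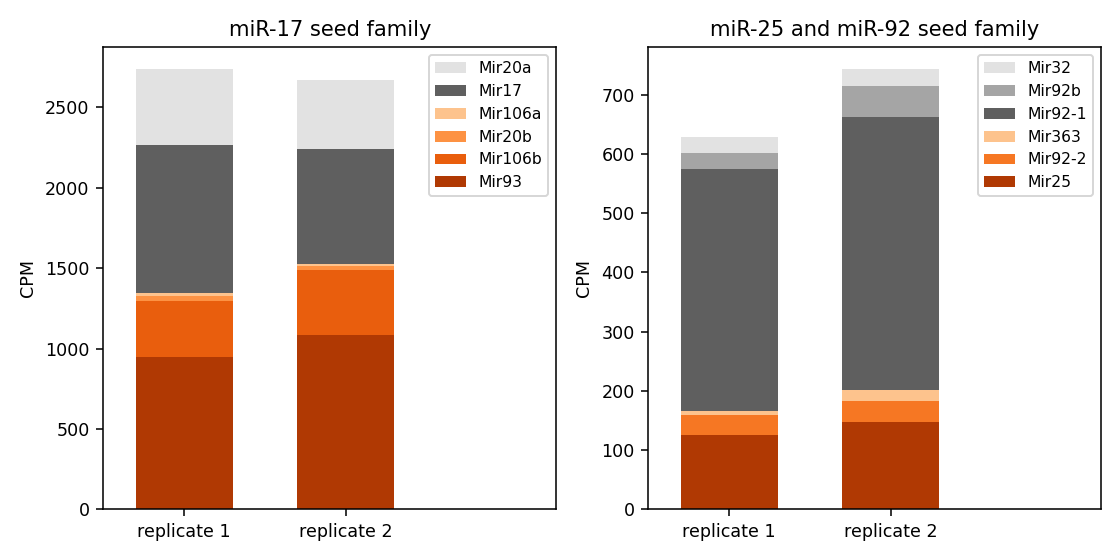
Stacked CPM of the genes with the seed of miR-17 (left) and with the seed of miR-25 and miR-92 (right) in each library, with the members of mir-106b-25 and mir-106a-363 in orange and other genes in grey. Mir93 and Mir106b fill most of the orange part on the left, and Mir92-1 is the broadest band on the right.

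The hairpins themselves also differed between the clusters. Hairpins of mir-106b-25 had a GC content of 57.3% in Mir106b, 55.7% in Mir93 and 63.1% in Mir25. Those of mir-106a-363 were between 38.1% in Mir19b-2 and 47.3% in Mir92-2, so the ranges do not overlap. Hairpins of the Mir17hg cluster were between 43.7% in Mir19b-1 and 47.5% in Mir92-1. The GC content of other miRNA hairpins was not computed. The predicted minimum free energy of Mir93 was -46.3 kcal/mol, the lowest of the 9, and that of Mir18b was -22.6 kcal/mol, the highest. Mir19b-2 had a predicted energy of -40.8 kcal/mol, close to that of Mir106b at -41.0 kcal/mol. Any link of GC content or predicted energy to level was not tested.

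For each detected member, the gene outside these clusters with the most similar level was found by the summed absolute difference of log2(CPM + 1) over the 2 libraries. For Mir93 this was Mir423, at 970 and 1092 CPM, with a distance of 0.05. For Mir106b it was the paralog Mir92-1, with a distance of 0.42. For Mir25 it was Mir1193, at 124 and 144 CPM, and for Mir106a it was Mir1941, at 16.5 and 12.6 CPM, each with a distance of 0.05. For Mir92-2 it was Mir1198 (0.11), for Mir20b it was Mir377 (0.21) and for Mir363 it was Mir5121 (0.45). With 2 libraries of 1 group, this is likeness of level and not of pattern. Where Mir92-1 or Mir92-2 is involved, it is likeness of counted reads only, because reads that fit both hairpins were left out.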

How the data were processed

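The authors deposited, for each library, whole-number counts of reads for every annotated miRNA gene, once over both strands and once for each strand relative to the gene. Per the text file headers beside the tables, the annotation was GENCODE M21 on mm10, and libraries were not pooled. The aligner and its version were not given in the sources used here, nor was the trimming. All 2202 gene identifiers matched GENCODE M21. From the counts on the strand of the gene, CPM values were computed as reads per 1000000 such reads, without the mapping lines. Exact intervals and the zero-count limit cover counting error only, since the tables hold no molecular identifiers. Replicates were compared with Fisher's exact test on reads (SciPy 1.17.1), adjusted by Benjamini-Hochberg over the 280 genes that averaged 10 CPM or more, with a pseudocount of 1 CPM for log2 differences. This step was run on simulated Poisson counts, with some genes changed by more than the limit for a call. The simulation held no spread beyond counting error, so it does not cover replicate spread or differences near that limit. Alternatives used TMM factors (edgeR 4.0.16) and DESeq2 1.42.0 size factors, other pseudocounts and filters, and the column for both strands. Hairpins were folded with RNAfold of ViennaRNA 2.7.2. Mature sequences came from RefSeq (GRCm38.p6) and matched all 9 genes by symbol. No genome sequence was used, so copies of a mature sequence were sought among annotated hairpins only. The genes, lists and rules were chosen with earlier results of these data known. Beside the members, the rule named the paralog cluster, the other genes of at least 10 CPM that share a seed, and for each detected member the gene nearest in level.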

Additional observations from a re-analysis of the deposited data

Results flagged for a closer look

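Multimapping reads, which lie outside the counts compared here, numbered 4001595 in replicate 1 and 2084009 in replicate 2, or 30.3% and 32.1% of all reads. The tables do not say how many of them came from miR-92a-3p or miR-19b-3p. No reads of the opposite strand were found in any of the 9 members.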

How the results depend on the processing

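No paired analysis was possible because there was 1 group. With all reads of the table as the denominator, mir-106b-25 summed to 754 CPM and mir-106a-363 to 44.6 CPM. With the column for both strands, whose total is smaller, they summed to 1712 and 101 CPM, while read counts of all 9 members were equal in both columns. The ratio of mir-106b-25 over the Mir17hg cluster was 1.18 without the genes whose mature strand matches 2 hairpins, against 0.878 with them. Of these clusters only the Mir17hg cluster holds such genes, so the ratio could only rise. The number of members called different between the replicates was 1, and 0 with DESeq2 size factors, 0 with a pseudocount of 5 CPM and 0 when the filter was raised to 100 CPM, where Mir363 was not tested. The log2 difference of Mir92-2 changed sign, to -0.022 with TMM and -0.056 with DESeq2 size factors. The count of members above 2 CPM was 7 in replicate 1 alone and in replicate 2 alone, and 17 member pairs were ordered under TMM, DESeq2 size factors and the column for both strands, alternatives added after the data were seen. Seed shares were the same with bases 2 to 7. The families as reported already took in any annotated arm, so that setting could not differ and tests nothing. Copies of a mature sequence were not sought in the genome, so that setting was run on annotated hairpins. Depth limits Mir18b, with 0 reads in both libraries. Among the detected members it limits Mir363, with 52 and 55 reads, and Mir106a, with 111 and 40 reads. Mir20b, with 217 and 74 reads, and Mir92-2, with 229 and 110 reads, are limited likewise in replicate 2.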
